A study of Mus musculus with 12 samples.

Results

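A set of 10 genes of the insulin-like growth factor (IGF) axis were followed in the livers of 4 genotypes of mice. They are the ligand gene Igf1, the receptor gene Igf1r, Igfals, which encodes the acid-labile subunit, and the genes of the IGF binding proteins, Igfbp1 to Igfbp7. The genes were listed by symbol and matched to Ensembl identifiers, and 10 of 10 were found among the 40551 genes counted. All 10 passed the filter on low counts, which left 15070 genes to be tested.

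IGF1 is a circulating growth factor that is made mainly by hepatocytes under the control of growth hormone. In blood most of it is held in a complex of IGF1, IGFBP3 (or IGFBP5) and the acid-labile subunit, which keeps it in the circulation, and the other binding proteins carry smaller, more mobile fractions. IGFBP1 is the member that hepatocytes regulate most acutely, since insulin represses its gene and fasting and cell stress raise it. IGFBP7 is a related secreted protein with low affinity for IGFs, expressed by vascular and mesenchymal cells. The liver is the source of the ligand more than its target, since mature hepatocytes carry little IGF1 receptor.

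Total RNA sequencing was performed on 12 livers, 3 of each genotype, with 1 library per liver. The groups were labelled WT, Mcl1 KO, Mcl1 Sting1 DKO and Sting1 KO. In Mcl1 KO mice a floxed Mcl1 gene, which encodes an antiapoptotic BCL2 family protein, is removed by a Cre recombinase under the albumin promoter, so that hepatocytes lose it and the other cells of the liver keep it. Sting1, which encodes the adaptor of cytosolic DNA sensing, is absent from the whole body in Sting1 KO mice, and the Mcl1 Sting1 DKO mice carry both changes. Per the study's methods, mice of both sexes were used. The study's text gives an age of 2 months for its analysis of Mcl1 KO liver transcriptomes, its methods give no age for these RNA libraries, and no label gives an age, the sex of a mouse or whether it had been fed or fasted.

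The libraries held 28826367 to 45266387 counts. Mcl1 ran at 90.2 to 104 CPM (counts per 1000000 counts of the library) in WT livers and at 18.1 to 34.0 CPM in the 6 livers labelled as lacking it in hepatocytes, so that this gene follows the labels. Sting1 ran at 2.11 to 2.53 CPM in WT and at 1.16 to 2.70 CPM in livers labelled Sting1 KO, so the gene count does not check that label, and statements on Sting1 rest on the labels. Y-linked genes were expressed in 3 libraries (WT replicates 2 and 3 and Mcl1 Sting1 DKO replicate 1, 141 to 157 CPM summed over 4 genes) and stood at 0.19 CPM or less in the other 9. WT replicate 1 was therefore the one WT library without them, and the Mcl1 KO and Sting1 KO groups held none with them. Small structured RNAs took 1.36% and 2.37% of the counts of Mcl1 KO replicates 3 and 2, against 0.172% to 0.897% in the other 10. Mcl1 KO replicate 3 also held skeletal muscle transcripts (1520 CPM summed over 8 marker genes, against 0.524 to 8.60 CPM elsewhere). Because these are bulk livers, fewer cells of a type and less RNA per cell cannot be told apart in any value below.

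The promoters of Igfbp1 and Igfals are shown first, since these 2 genes had the largest fold changes of the 10 in Mcl1 KO against WT. Each is the 250 bases before a transcription start in the RefSeq promoter table, which was built on GRCm38.p6, and each sequence was placed by its exact and unique match on the plus strand of GRCm39. All 10 genes matched that table, with 13 windows in all. Capitals mark a match to 1 of 3 motifs searched on both strands, CAAAACA (the core of the insulin response sequence bound by FOXO factors), GTAAACA (the forkhead consensus bound by FOXO factors) and TTCNNNGAA (the element bound by STAT5, the transcription factor below the growth hormone receptor). The matches shown do not overlap each other.
Igfbp1, chr11:7147537-7147786: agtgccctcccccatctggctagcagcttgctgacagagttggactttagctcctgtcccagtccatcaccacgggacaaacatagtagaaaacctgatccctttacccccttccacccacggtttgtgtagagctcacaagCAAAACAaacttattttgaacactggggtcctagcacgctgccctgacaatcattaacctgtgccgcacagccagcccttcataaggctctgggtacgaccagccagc
Igfals, chr17:25096568-25096817: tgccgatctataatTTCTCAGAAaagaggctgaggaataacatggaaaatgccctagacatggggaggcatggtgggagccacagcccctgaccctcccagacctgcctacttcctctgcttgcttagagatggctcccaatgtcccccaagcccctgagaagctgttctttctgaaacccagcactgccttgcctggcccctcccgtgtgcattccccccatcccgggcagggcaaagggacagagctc
Igfals, chr17:25096955-25097204: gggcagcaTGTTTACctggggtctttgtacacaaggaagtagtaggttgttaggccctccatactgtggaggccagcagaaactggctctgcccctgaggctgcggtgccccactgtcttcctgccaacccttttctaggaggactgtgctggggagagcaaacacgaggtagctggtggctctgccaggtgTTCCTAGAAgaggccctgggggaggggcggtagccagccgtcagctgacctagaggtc

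The Igfbp1 window holds CAAAACA at 108 to 102 bases before the start, and 5.56% of the 32851 windows in the table hold that motif. The first Igfals window holds TTCNNNGAA at 236 to 228 bases before its start. The second Igfals window holds GTAAACA on the minus strand (TGTTTAC as printed) at 242 to 236 bases and TTCNNNGAA at 58 to 50 bases before its start. In the whole table GTAAACA occurs in 3.17% and TTCNNNGAA in 7.02% of windows. The remaining Igfals window and the windows of the other 8 genes hold none of these letters. A match is a run of letters in the reference, and no binding was measured here.

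On GRCm39 the 10 genes lie on 7 chromosomes. Igf1 (ENSMUSG00000020053) spans chr10:87693642-87772904 and Igf1r (ENSMUSG00000005533) chr7:67601518-67883416, both on the plus strand, and Igfals (ENSMUSG00000046070) spans chr17:25084971-25100984, so that both printed Igfals windows lie inside the annotated gene. Igfbp1 (ENSMUSG00000020429, chr11:7147651-7152546) and Igfbp3 (ENSMUSG00000020427, chr11:7156086-7164179) face each other tail to tail, with 3539 bases between them. The printed Igfbp1 window runs past the annotated start of Igfbp1, and its CAAAACA lies inside the annotated gene. Igfbp2 (ENSMUSG00000039323, chr1:72863606-72891634) and Igfbp5 (ENSMUSG00000026185, chr1:72897091-72914043) are arranged in the same way with 5456 bases between them. Igfbp4 (ENSMUSG00000017493) spans chr11:98932064-98945218, Igfbp6 (ENSMUSG00000023046) chr15:102052697-102057953 and Igfbp7 (ENSMUSG00000036256) chr5:77493130-77555931. Igfbp7 overlaps Polr2b on the opposite strand, which had at most 2761 counts in a library, and Igf1 overlaps the antisense gene Igf1os, which had at most 58. The strand setting of the counting is not given in the sources used here, so reads in the shared stretches cannot be assigned with certainty.

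In WT livers the 10 genes differed widely in abundance. Levels between genes are compared as TPM, a unit that divides each count by exon length before scaling. Igfbp4 was the most abundant transcript (1184 ± 19.6 TPM, SD, n = 3), followed by Igfbp2 (707 ± 297 TPM), Igfals (242 ± 62.0 TPM) and Igf1 (181 ± 3.86 TPM). Igfbp7 (58.8 ± 13.4 TPM), Igfbp1 (34.6 ± 27.2 TPM) and Igfbp3 (27.6 ± 8.58 TPM) came next, and in this order the ranges of Igfbp7 and Igfbp1, and of Igfbp1 and Igfbp3, overlapped. Igfbp5 (8.89 ± 4.62 TPM) and Igfbp6 (6.25 ± 2.10 TPM) were low and overlapped each other. Igf1r was the lowest (0.691 ± 0.182 TPM), with 102 to 300 counts in a library over the 12 livers. The ligand gene therefore stood far above its receptor gene in whole liver, and the ranges of the 4 most abundant genes did not overlap in WT.

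**Figure D1:**
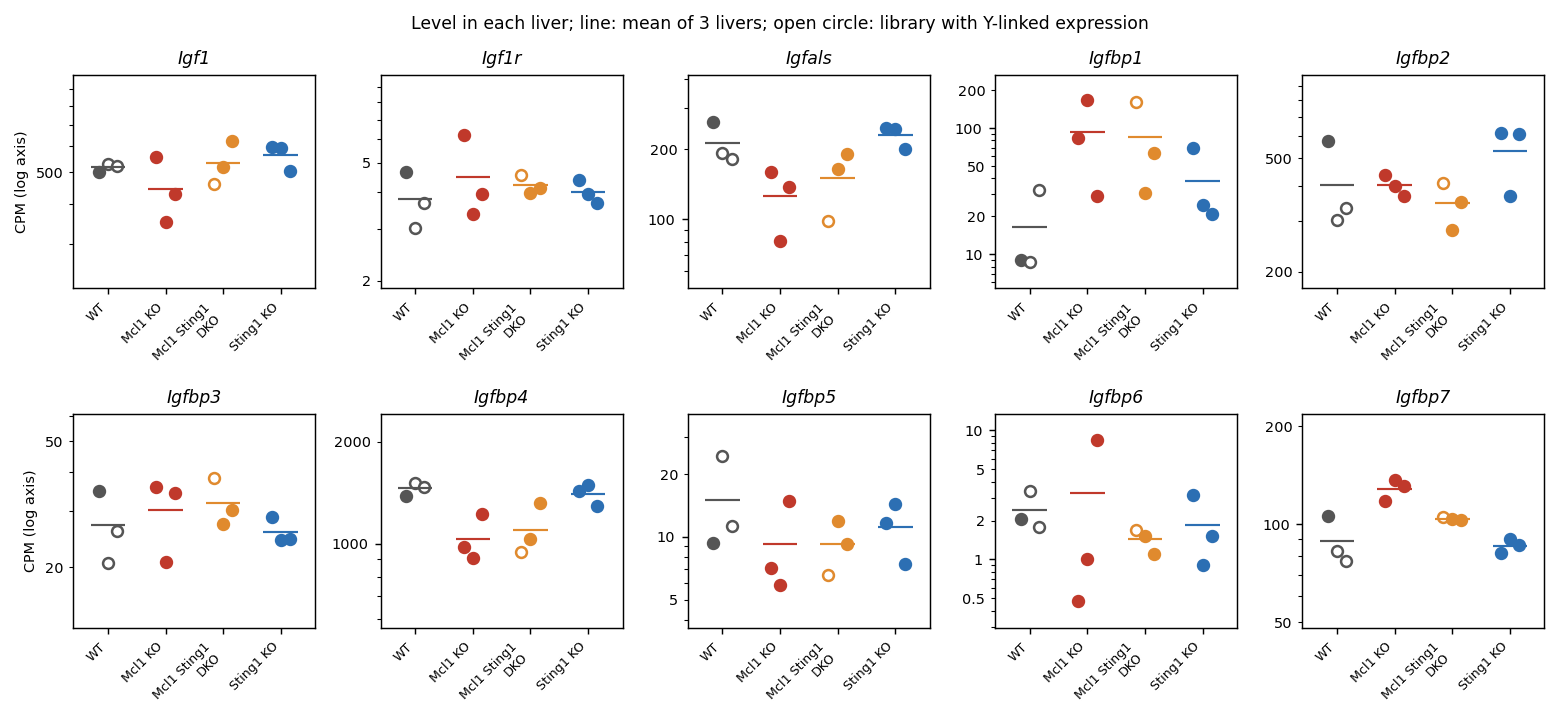
Level of each of the 10 genes in each of the 12 livers, in CPM on a log axis with its own range per gene; points are livers, lines are means of 3 livers, and open circles are the 3 libraries with Y-linked expression. Igfbp1 (28.8 to 166 CPM) and Igfbp6 (0.476 to 8.38 CPM) were widely spread in Mcl1 KO, and Igfals and Igfbp4 were lower and Igfbp7 was higher in each Mcl1 KO liver than in each WT liver.

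Hepatocyte deletion of Mcl1 was first compared with WT on intact Sting1. Igfbp1 rose 5.6-fold and Igfbp7 rose 1.45-fold. These 2 of the 10 had an adjusted p under 0.05 in edgeR's quasi-likelihood test (Benjamini-Hochberg over all genes tested), where 20.2% of all tested genes passed, 10.8% as higher and 9.43% as lower. At an unadjusted p under 0.05 there were 4 of the 10, against 36.9% of all genes. DESeq2 called 4 (Igfals, Igfbp1, Igfbp4 and Igfbp7), against 22.5% of the genes to which it gave an adjusted p. The counts of edgeR were close to the shares of all genes. Their median log2 fold change was 0.07, against -0.0049 over all genes, with 5 positive and 5 negative. All 3 Mcl1 KO livers lay outside the WT range for 3 of the 10 genes (Igfbp7 higher, Igfals and Igfbp4 lower), and for 33.3% of all genes.

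Igf1 itself, the ligand, was not distinguishable between Mcl1 KO and WT. It stood at 499, 531 and 521 CPM in WT and at 555, 352 and 429 CPM in Mcl1 KO. One Mcl1 KO liver lay above the WT range and the other two below it, so the groups overlapped. The log2 fold change was -0.22 (SE 0.18, 95% interval -0.61 to 0.18, adjusted p = 0.410 by edgeR). Igf1r, the receptor, was at 4.64, 3.03 and 3.67 CPM in WT and at 6.21, 3.37 and 3.92 CPM in Mcl1 KO. These ranges overlapped (log2 fold change 0.25, SE 0.24, adjusted p = 0.466 by edgeR).

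Igfals, which encodes the subunit that stabilises the large IGF1 complex in blood, was lower in each Mcl1 KO liver than in any WT liver. It stood at 262, 193 and 182 CPM in WT and at 159, 80.9 and 138 CPM in Mcl1 KO. The log2 fold change was -0.75 (SE 0.28, 95% interval -1.36 to -0.14), which did not pass in edgeR (adjusted p = 0.0750) and passed in DESeq2 (adjusted p = 0.0397). The value depended on how the libraries were described. It was -1.17 (adjusted p = 0.0241 by edgeR) with Y-linked expression as a covariate and -0.24 (adjusted p = 0.713) once the percentage of counts on small structured RNAs entered the fit. Without Mcl1 KO replicate 1 it passed (log2 fold change -0.96, adjusted p = 0.0333 by edgeR), and without Mcl1 KO replicate 2 it was -0.52 (adjusted p = 0.246).

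Igfbp1 had the largest fold change of the 10 genes, and its livers were widely spread. It stood at 8.94, 8.63 and 32.2 CPM in WT and at 84.0, 166 and 28.8 CPM in Mcl1 KO. Mcl1 KO replicates 1 and 2 were above every WT liver, whereas Mcl1 KO replicate 3 was below WT replicate 3, so the groups overlapped. Its log2 fold change was 2.48 (SE 0.80, 95% interval 0.74 to 4.23, adjusted p = 0.0475 by edgeR). The adjusted p was close to the threshold and crossed it when any of 7 libraries was left out. By edgeR it was 0.120 without WT replicate 1, 0.148 without WT replicate 2, 0.0513 without Mcl1 KO replicate 1 and 0.195 without Mcl1 KO replicate 2. It was 0.0578 without Mcl1 Sting1 DKO replicate 3, 0.0605 without Sting1 KO replicate 2 and 0.0576 without Sting1 KO replicate 3. Values ranged from 1.77 to 3.39 over the 12 fits that each left out 1 library. With the Y-linked covariate it was 3.54 (adjusted p = 0.0307), and with the small RNA covariate 1.93 (adjusted p = 0.290).

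Among all transcripts of the binding proteins, the share that came from Igfbp1 varied by liver. Summed over Igfbp1 to Igfbp7 in TPM, Igfbp1 made up 0.838%, 0.974% and 3.52% in WT. It made up 9.63%, 18.5% and 3.30% in Mcl1 KO. In Mcl1 Sting1 DKO it made up 17.7%, 4.32% and 7.0%, and in Sting1 KO 5.95%, 2.59% and 1.96%. Within each genotype the livers differed several-fold in this share, and Igfbp4 and Igfbp2 together remained the bulk of binding protein transcripts in all 12 livers.

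Igfbp7 was higher in each Mcl1 KO liver than in any WT liver. It stood at 106, 82.5 and 76.9 CPM in WT and at 118, 137 and 131 CPM in Mcl1 KO. This gave a log2 fold change of 0.54 (SE 0.14, 95% interval 0.24 to 0.84, adjusted p = 0.0207 by edgeR). The highest WT value was that of replicate 1, the WT library without Y-linked expression. The call was lost without WT replicate 2 (adjusted p = 0.0872 by edgeR), without WT replicate 3 (adjusted p = 0.0850) and without Mcl1 KO replicate 2 (adjusted p = 0.0701). With the Y-linked covariate the log2 fold change was 0.42 (adjusted p = 0.122 by edgeR), and with the small RNA covariate 0.44 (adjusted p = 0.188). With only the genotypes compared it was 0.56 (adjusted p = 0.0988). Over the 9 libraries without Y-linked expression, which leaves 1 WT liver, it was 0.27.

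Hepatic stellate and other mesenchymal cells are a source of Igfbp7. Of 9 markers of such cells tested, 4 rose in Mcl1 KO (Col3a1, Col1a1, Des and Dcn) and 0 fell. Over all tested genes 10.8% rose and 9.43% fell. The log2 fold changes of the 9 ran from -0.61 (Ecm1, adjusted p = 0.0545 by edgeR) to 2.51 (Des). DESeq2 called 5 of the 9 higher and 1 lower, against 22.5% of the genes to which it gave an adjusted p. Des is a muscle gene as well, and it stood at 7.61 and 9.45 CPM in Mcl1 KO replicates 1 and 2 and at 69.9 CPM in replicate 3, the library with muscle transcripts. Without that library 3 of the 9 rose and Des was at 0.75 (adjusted p = 0.0588 by edgeR). With the small RNA covariate 0 of the 9 were called, and with the Y-linked covariate 2 rose and 1 fell. Over all genes these 3 fits called 2556, 490 and 1501, against 3050 as reported. The summed level of the 9 markers was 525 to 804 CPM in WT and 944 to 1024 CPM in Mcl1 KO. It was 785 to 981 CPM in Mcl1 Sting1 DKO and 551 to 649 CPM in Sting1 KO, and no marker was at 0 in any library. Of 8 sinusoidal endothelial markers, among them Lyve1 and Pecam1, 0 were called in either direction, and their sums were 325 to 470 CPM in WT and 301 to 506 CPM in Mcl1 KO. Of 7 Kupffer cell and macrophage markers, 4 rose (Cd68, Marco, Cd5l and Adgre1), with sums of 398 to 630 CPM in WT and 663 to 798 CPM in Mcl1 KO. Of these 7 markers, 0 were called with the small RNA covariate and 2 rose with the Y-linked covariate. Without WT replicate 2, or without Mcl1 KO replicate 2, 1 rose, in fits that called 1233 and 1238 of all genes. Of 5 cholangiocyte markers tested, Krt19 and Epcam among them, 0 were called. The part of these cells in the Igfbp7 value was not tested.

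Igfbp4, the most abundant binding protein transcript, was lower in each Mcl1 KO liver than in any WT liver. It stood at 1387, 1514 and 1474 CPM in WT and at 976, 905 and 1229 CPM in Mcl1 KO. The log2 fold change was -0.49 (SE 0.17, 95% interval -0.86 to -0.12), which did not pass in edgeR (adjusted p = 0.0579) and passed in DESeq2 (adjusted p = 0.0256). It passed in edgeR without Mcl1 KO replicate 3, the library with muscle transcripts (log2 fold change -0.63, adjusted p = 0.0308). Without Mcl1 KO replicate 2 it was -0.40 (adjusted p = 0.191 by edgeR). With the Y-linked covariate Igfbp4 was at -0.555 (adjusted p = 0.1025), and with the small RNA covariate at -0.41 (adjusted p = 0.349). Hepatocytes make most of the liver's Igfals, Igfbp1 and Igf1. Of 7 hepatocyte markers tested 1 fell (Serpina1c) and 0 rose, where 9.43% and 10.8% of all tested genes did so. The median log2 fold change of the 7 markers was -0.20, against -0.0049 over all genes. Their sums were 94840 to 152400 CPM in WT and 106800 to 144200 CPM in Mcl1 KO. The part of hepatocyte RNA in these values was not tested.

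The other 4 binding protein genes showed no call between Mcl1 KO and WT. Igfbp2, the second most abundant, stood at 575, 305 and 334 CPM in WT and at 437, 401 and 369 CPM in Mcl1 KO, with a log2 fold change of -0.0086 (95% interval -0.59 to 0.57). Igfbp3, the carrier of most circulating IGF1, stood at 34.8, 20.6 and 26.0 CPM in WT and at 35.9, 20.7 and 34.3 CPM in Mcl1 KO (log2 fold change 0.16, 95% interval -0.35 to 0.67). For Igfbp2 the 3 Mcl1 KO livers lay inside the WT range, and for Igfbp3 the groups covered nearly the same range. Igfbp5 stood at 9.31, 24.4 and 11.3 CPM in WT and at 7.08, 5.87 and 14.9 CPM in Mcl1 KO (log2 fold change -0.69, 95% interval -1.61 to 0.23).

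Igfbp6 showed how far 1 library can carry a low gene. It stood at 2.06, 3.38 and 1.78 CPM in WT and at 0.476, 1.01 and 8.38 CPM in Mcl1 KO. The highest value belonged to Mcl1 KO replicate 3, the library with muscle transcripts, and the other two Mcl1 KO livers were below the WT range. Its log2 fold change was 0.43 (SE 0.79, adjusted p = 0.731 by edgeR) with that library and -1.65 (SE 0.53, adjusted p = 0.0549) without it. The part of muscle tissue in this value was not tested.

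Deletion of Mcl1 was next compared on the Sting1 KO background, as Mcl1 Sting1 DKO against Sting1 KO. None of the 10 genes passed in edgeR, 2 had an unadjusted p under 0.05 and DESeq2 called 0. Of all tested genes 0.803% passed in edgeR (0.677% higher and 0.126% lower), 11.3% had an unadjusted p under 0.05 and DESeq2 called 2.83%. For 2 of the 10 genes (Igfals lower, Igfbp7 higher) the groups did not overlap, against 22.3% of all genes. The median log2 fold change of the 10 genes was -0.17, against -0.0087 over all genes.

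Igfals stood at 98.5, 164 and 191 CPM in Mcl1 Sting1 DKO and at 247, 244 and 201 CPM in Sting1 KO. All 3 livers with the deletion were below the 3 without it (log2 fold change -0.61, SE 0.28, adjusted p = 0.438 by edgeR). Igfbp4 stood at 947, 1031 and 1319 CPM in Mcl1 Sting1 DKO and at 1432, 1489 and 1298 CPM in Sting1 KO, which overlapped at 1 liver (log2 fold change -0.36, SE 0.17, adjusted p = 0.464). Igfbp7 stood at 105, 104 and 103 CPM in Mcl1 Sting1 DKO and at 81.5, 89.9 and 86.2 CPM in Sting1 KO. Both groups were tight and did not overlap (log2 fold change 0.27, SE 0.14, adjusted p = 0.504 by edgeR).

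Igfbp1 stood at 162, 30.5 and 63.7 CPM in Mcl1 Sting1 DKO and at 69.7, 24.4 and 20.8 CPM in Sting1 KO. The highest Sting1 KO liver was above the lower 2 DKO livers (log2 fold change 1.15, SE 0.77, 95% interval -0.52 to 2.83). Igfbp2 stood at 410, 280 and 353 CPM in Mcl1 Sting1 DKO and at 616, 370 and 609 CPM in Sting1 KO. It had the smallest unadjusted p of the 10 genes here (0.0398 by edgeR, adjusted p = 0.411) with a log2 fold change of -0.61 (SE 0.27). Igf1 stood at 459, 518 and 624 CPM and at 597, 594 and 505 CPM in these groups, a log2 fold change of -0.084 (95% interval -0.48 to 0.31). The log2 fold changes of Igf1r, Igfbp3, Igfbp5 and Igfbp6 were 0.076, 0.30, -0.26 and -0.35, and the groups overlapped for each.

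**Figure D2:**
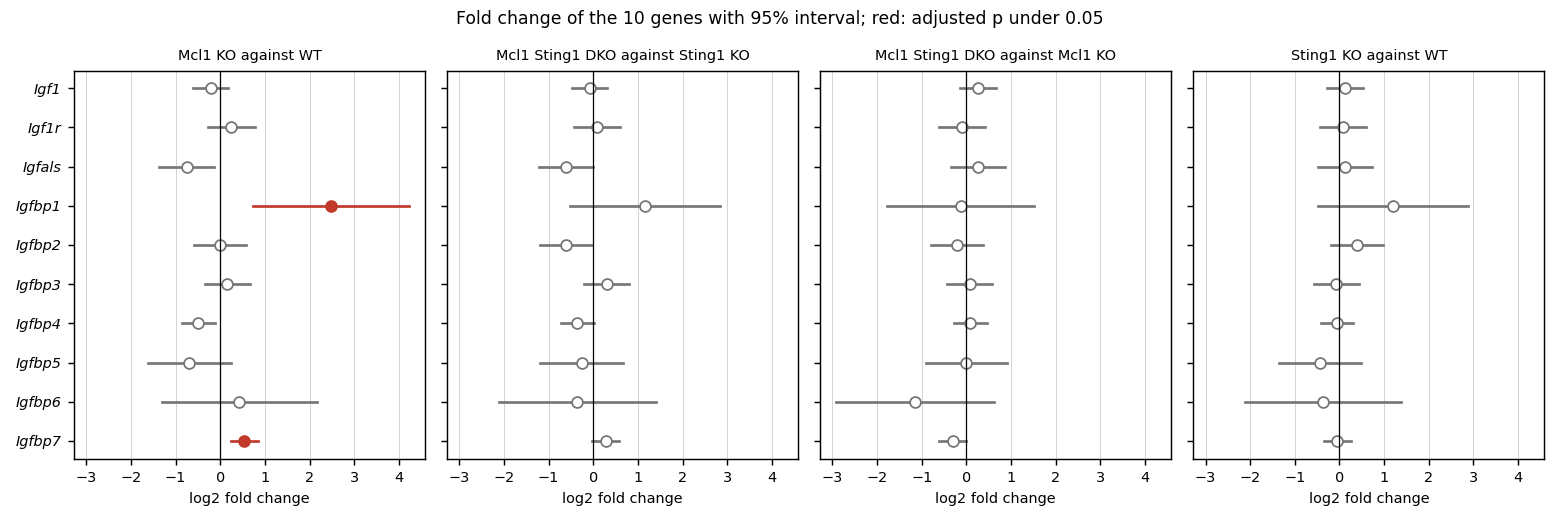
Log2 fold change of each of the 10 genes in the 4 comparisons between genotypes, with the 95% interval of the edgeR fit as a bar; filled red points passed an adjusted p of 0.05 and open points did not. Igfbp1 (2.48) and Igfbp7 (0.54) passed in Mcl1 KO against WT, and no gene passed in the other 3 comparisons.

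The question whether loss of Sting1 changes these genes in Mcl1-deficient livers was asked as Mcl1 Sting1 DKO against Mcl1 KO. This comparison shares the Mcl1 KO livers with the first one, so that its values are not independent of it. None of the 10 genes passed in edgeR, 1 had an unadjusted p under 0.05 and DESeq2 called 0. Of all genes 0.0% passed in edgeR, 20.6% had an unadjusted p under 0.05 and DESeq2 called 4.77%. The gene with the smallest p was Igfbp7, at 103 to 105 CPM in Mcl1 Sting1 DKO against 118 to 137 CPM in Mcl1 KO. Its log2 fold change was -0.31 (SE 0.14, unadjusted p = 0.0458 and adjusted p = 0.236 by edgeR). It was the one member of 10 whose groups did not overlap, against 18.2% of all genes. Igf1 (log2 fold change 0.26, 95% interval -0.13 to 0.66) and Igfals (0.26, -0.35 to 0.87) were within the spread between livers. Igfbp1 (log2 fold change -0.12, 95% interval -1.78 to 1.53) and Igfbp4 (0.08, -0.28 to 0.45) were within it as well. The interval of Igfbp1 covers changes of more than 2-fold in either direction.

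In livers with intact Mcl1, Sting1 KO against WT gave 0 calls among the 10 genes in edgeR, 0 at an unadjusted p under 0.05 and 0 in DESeq2. Of all genes 0.0% passed in edgeR, 5.45% had an unadjusted p under 0.05 and DESeq2 called 0.323%. The groups overlapped for each of the 10 genes, and did not overlap for 12.5% of all genes. The largest value was that of Igfbp1 (log2 fold change 1.21, SE 0.77), whose 3 Sting1 KO livers stood at 20.8 to 69.7 CPM against 8.63 to 32.2 CPM in WT. Igfbp2 followed (0.40, SE 0.27), and Igf1 (0.13, SE 0.18), Igfals (0.12, SE 0.28), Igfbp4 (-0.053, SE 0.17) and Igfbp7 (-0.045, SE 0.14) were close to 0.

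The effect of Mcl1 deletion was not shown to differ between Sting1 backgrounds for any member. The difference of the 2 Mcl1 effects, tested as an interaction in edgeR, was called for 0 of the 10 genes, with 0 at an unadjusted p under 0.05 and 0 in DESeq2. Over all genes it was called for 0.0% in edgeR and 1.15% in DESeq2, and 14.4% had an unadjusted p under 0.05. The differences ranged from -1.33 (Igfbp1, SE 1.08) to 0.43 on the log2 scale. For Igfals the difference was 0.14 (95% interval -0.72 to 1.0).

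Because the difference was not called, the mean of both Mcl1 effects was also taken, a comparison chosen after these values had been seen. In this mean 4 of the 10 genes passed in edgeR, where 16.7% of all genes passed (9.9% higher and 6.83% lower). Igfbp1 rose (log2 fold change 1.82, SE 0.55, adjusted p = 0.0424) and Igfbp7 rose (0.41, SE 0.10, adjusted p = 0.0160). Igfals fell (log2 fold change -0.68, SE 0.20, adjusted p = 0.0348) and Igfbp4 fell (-0.42, SE 0.12, adjusted p = 0.0309). Igf1 (-0.15, 95% interval -0.43 to 0.13) and Igfbp2 (-0.31, 95% interval -0.72 to 0.098) did not pass. The same number had an unadjusted p under 0.05, against 32.4% of all genes, and DESeq2 called 4, against 18.5%. Igfbp7 remained past the threshold in 12 of 12 fits that each left out 1 library, and Igfals, Igfbp1 and Igfbp4 in 5 of 12 each. Igfals lost its call (adjusted p 0.0543 to 0.0759 by edgeR) without WT replicate 1 or 2, Mcl1 KO replicate 2, Mcl1 Sting1 DKO replicate 1 or 2, or Sting1 KO replicate 1 or 2. Igfbp1 lost it (0.0515 to 0.115) without WT replicate 1 or 2, Mcl1 KO replicate 2, Mcl1 Sting1 DKO replicate 1 or 3, or Sting1 KO replicate 2 or 3. Igfbp4 lost it (0.0642 to 0.0778) without WT replicate 2 or 3, Mcl1 KO replicate 2, Mcl1 Sting1 DKO replicate 1 or 2, or Sting1 KO replicate 1 or 2. Over the 9 libraries without Y-linked expression, which leave 1 WT liver, the log2 fold changes were 1.83 for Igfbp1, 0.26 for Igfbp7, -0.72 for Igfals and -0.35 for Igfbp4.

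Set against the 6 livers with intact Mcl1, the 6 livers with the deletion were shifted for these genes without full separation. Igfals ranged from 182 to 262 CPM (median 223) with intact Mcl1 and from 80.9 to 191 CPM (median 149) with the deletion, and 5 of the 6 deleted livers were below the lowest intact one. Igfbp4 ranged from 1298 to 1514 CPM and from 905 to 1319 CPM, again with 5 of 6 below. Igfbp7 ranged from 76.9 to 106 CPM and from 103 to 137 CPM, with 3 of 6 above the highest intact liver. Igfbp1 ranged from 8.63 to 69.7 CPM and from 28.8 to 166 CPM, with 3 of 6 above. The libraries without Y-linked expression, a subset chosen after seeing the data, leave 1 WT liver beside the Sting1 KO livers on the intact side. There Igfals did not overlap between intact and deleted livers (201 to 262 against 80.9 to 191 CPM). Igfbp4 (1298 to 1489 against 905 to 1319 CPM), Igfbp7 (81.5 to 106 against 103 to 137 CPM) and Igfbp1 (8.94 to 69.7 against 28.8 to 166 CPM) did overlap. The share of all genes without overlap in this subset is not given here.

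**Figure D3:**
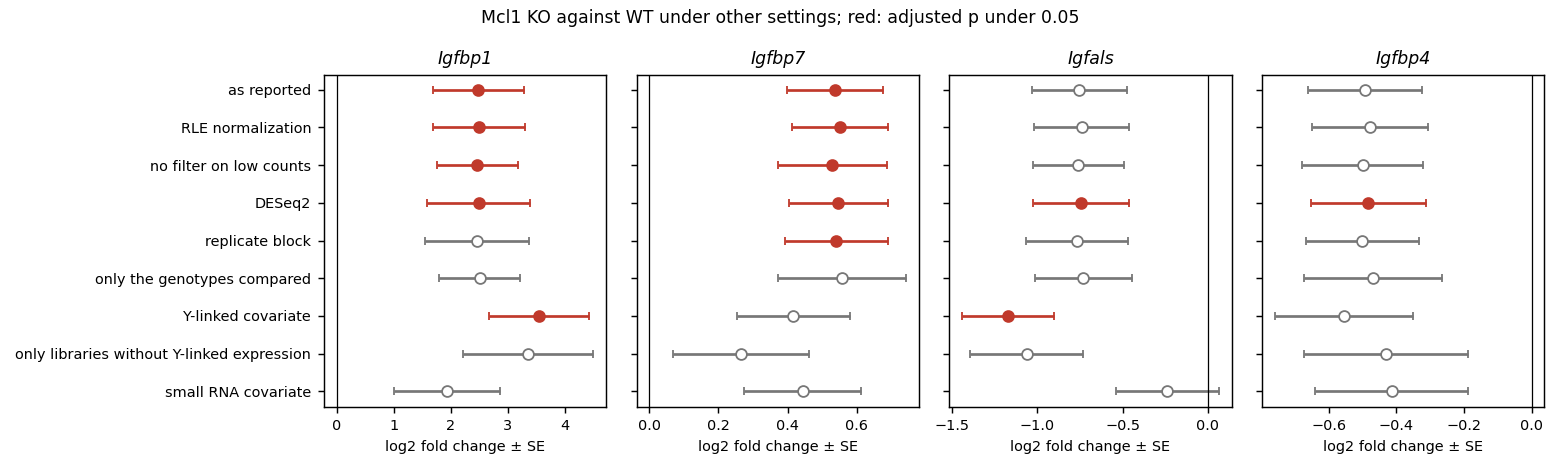
Log2 fold change of Igfbp1, Igfbp7, Igfals and Igfbp4 in Mcl1 KO against WT as reported and under 8 other settings of the fit, with SE as bars; filled red points passed an adjusted p of 0.05. The direction held in each setting shown, while the call did not, and the small RNA covariate took Igfals from -0.75 to -0.24.

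Growth hormone is secreted in a different rhythm in male and female mice, and here the WT and Mcl1 Sting1 DKO groups each held libraries with and without Y-linked expression. Of 10 male-biased liver genes, 7 fell in Mcl1 KO against WT (9.43% of all tested genes fell), Cyp7b1, Hsd3b5, Mup7 and Nudt7 among them. Their summed level was 6728 to 19710 CPM in the 3 libraries with Y-linked expression and 293 to 1278 CPM in the other 9. Of 10 female-biased genes, A1bg and Sult3a1 among them, 0 were called in either direction, and their sums were 9.31 to 28.4 CPM in the 3 libraries with Y-linked expression and 1404 to 4427 CPM in the other 9. The lists thus sorted the libraries as the Y-linked genes did. For the 10 genes, sex entered only through the covariate and the libraries without Y-linked expression, above. Neither can fully tell sex from genotype in Mcl1 KO against WT. Mcl1 KO held no library with Y-linked expression, and WT held 1 without it.

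Genes that act before IGF1, in the response to growth hormone, were tested as a list of 11. In Mcl1 KO against WT 3 fell, 0 rose, and their median log2 fold change was -0.33, against -0.0049 over all genes. The calls over all tested genes were 9.43% lower and 10.8% higher. Ghr, the growth hormone receptor, stood at 635, 791 and 670 CPM in WT and at 309, 235 and 366 CPM in Mcl1 KO. The lowest WT liver was well above the highest Mcl1 KO liver (log2 fold change -1.20, SE 0.18, adjusted p = 0.00209 by edgeR), and the call held in 12 of 12 fits that each left out 1 library and under both covariates. Over the libraries without Y-linked expression, which leave 1 WT liver, it was -1.07 (adjusted p = 0.118). Cish, a feedback inhibitor induced by STAT5, fell from 16.6, 24.3 and 22.9 CPM to 11.3, 4.87 and 8.86 CPM (log2 fold change -1.34, SE 0.40, adjusted p = 0.0355, held in 7 of 12 such fits). Stat5b fell with a log2 fold change of -0.53 (SE 0.17, adjusted p = 0.0498, held in 1 of 12). With the Y-linked covariate Cish was at -0.92 (adjusted p = 0.186) and Stat5b at -0.44 (adjusted p = 0.213), and with the small RNA covariate they were at -0.88 (adjusted p = 0.378) and -0.24 (adjusted p = 0.491). Of the 11 genes 1 was called under each covariate, and leaving out 1 library gave 1 to 5 calls. Over all genes 1501 were called with the Y-linked and 490 with the small RNA covariate. Leaving out 1 library gave 1233 to 5232, against 3050 as reported. Socs2, another feedback inhibitor, had a log2 fold change of -0.87 (SE 0.62) that did not pass.

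With Sting1 absent, 0 of these 11 genes were called for Mcl1 deletion in edgeR and 1 had an unadjusted p under 0.05, where 0.803% and 11.3% of all genes did so. Ghr stood at 453, 495 and 547 CPM in Mcl1 Sting1 DKO and at 621, 642 and 555 CPM in Sting1 KO, without overlap (log2 fold change -0.28, SE 0.18, adjusted p = 0.623 by edgeR). The difference between the 2 Mcl1 effects on Ghr was 0.92 (SE 0.25, unadjusted p = 0.00307), which did not pass over all genes (adjusted p = 0.255).

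Among other genes of the IGF axis, 15 were listed and 8 were expressed enough to be tested. Of these 8, 2 rose and 1 fell in Mcl1 KO against WT (median log2 fold change 0.50). Over all tested genes 10.8% rose and 9.43% fell. Igf2bp3, an RNA-binding protein of fetal tissues named for Igf2 mRNA, stood at 0.211, 0.564 and 0.363 CPM in WT and at 5.40, 4.41 and 2.69 CPM in Mcl1 KO. It was near the limit of detection in WT and above 2 CPM in each Mcl1 KO liver (log2 fold change 3.29, SE 0.57, adjusted p = 0.00400 by edgeR). It rose in Mcl1 Sting1 DKO against Sting1 KO as well, from 0.204, 0.239 and 0.748 CPM to 6.05, 1.90 and 2.60 CPM (log2 fold change 2.96, SE 0.55, adjusted p = 0.0380), a call that held in 4 of 12 fits that each left out 1 library. Pappa, which encodes a protease that cleaves IGFBP4 and frees IGF, was low throughout and rose from 0.739, 0.119 and 0.165 CPM to 1.57, 1.16 and 1.04 CPM (log2 fold change 1.71, SE 0.53, adjusted p = 0.0418, held in 3 of 12 such fits). Igf2bp3 passed under both covariates (adjusted p = 0.00404 and 0.0287 by edgeR), whereas Pappa did not (adjusted p = 0.113 and 0.150). Over the libraries without Y-linked expression, which leave 1 WT liver, the log2 fold change was 3.995 for Igf2bp3 and 0.73 for Pappa.

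Insr, the insulin receptor, fell in Mcl1 KO against WT. It stood at 168, 155 and 190 CPM in WT and at 147, 64.7 and 68.0 CPM in Mcl1 KO. Mcl1 KO replicates 2 and 3, which had the largest shares of small structured RNAs, were far below WT, and replicate 1 was just below it. Its log2 fold change was -0.87 (SE 0.28, adjusted p = 0.0460 by edgeR), the call held in 1 of 12 fits that each left out 1 library, and with the small RNA covariate the value was -0.34 (adjusted p = 0.452). The part of RNA composition in this value was not tested beyond that covariate.

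Of 18 genes of insulin and IGF1 receptor signaling, 5 fell and 0 rose in Mcl1 KO against WT, with a median log2 fold change of -0.44. The shares of all tested genes were 9.43% lower and 10.8% higher. With the small RNA covariate 0 of the 18 were called and the median was -0.20, and with the Y-linked covariate 2 fell. Those fits called 490 and 1501 genes in all, against 3050 in the fit as reported. When 1 library was left out, the fewest calls came without Mcl1 KO replicate 2 (1 fell and 0 rose, 1238 genes called in all). The most came without Mcl1 KO replicate 1 (10 fell and 1 rose, 5232 genes called in all). Foxo3, a transcription factor held out of the nucleus by AKT, was 95.3 to 104 CPM in WT and 50.0 to 57.9 CPM in Mcl1 KO (log2 fold change -0.87, SE 0.17, adjusted p = 0.00706 by edgeR). Pik3r1, the regulatory subunit of PI3K, stood at 148, 179 and 135 CPM in WT and at 108, 72.5 and 57.4 CPM in Mcl1 KO (log2 fold change -0.96, SE 0.27, adjusted p = 0.0276, held in 9 of 12 fits that each left out 1 library). Rptor, a subunit of mTORC1 (log2 fold change -0.57), and the adaptor Gab1 (-0.79) fell too, and so did Tsc2 (-0.55), an inhibitor of mTORC1. With the small RNA covariate the values were -0.75 for Foxo3 (adjusted p = 0.111), -0.64 for Pik3r1 (0.316), -0.41 for Rptor (0.166), -0.37 for Gab1 (0.356) and -0.23 for Tsc2 (0.379). The genes that fell include activators and inhibitors of the pathway. On the Sting1 KO background, where 0.803% of all genes passed, 0 of the 18 did, with 0 at an unadjusted p under 0.05 and a median log2 fold change of -0.092.

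Igfbp1 is one of the genes that FOXO1 activates in hepatocytes when insulin is low, and 7 other such genes were tested as a list. In Mcl1 KO against WT 1 fell (Mttp, which loads lipid onto apolipoprotein B, log2 fold change -0.57, SE 0.18, adjusted p = 0.0460 by edgeR, held in 3 of 12 fits that each left out 1 library) and 0 rose. Their log2 fold changes ran from -0.57 to 0.63 (Apoc3, adjusted p = 0.0515) with a median of -0.33. The log2 fold change of Pck1, a gluconeogenic enzyme, was 0.56 (adjusted p = 0.332). Under either covariate 0 of the 7 were called, and DESeq2 called 1 higher and 1 lower. In the edgeR fit as reported, 9.43% of all tested genes fell and 10.8% rose.

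**Figure D4:**
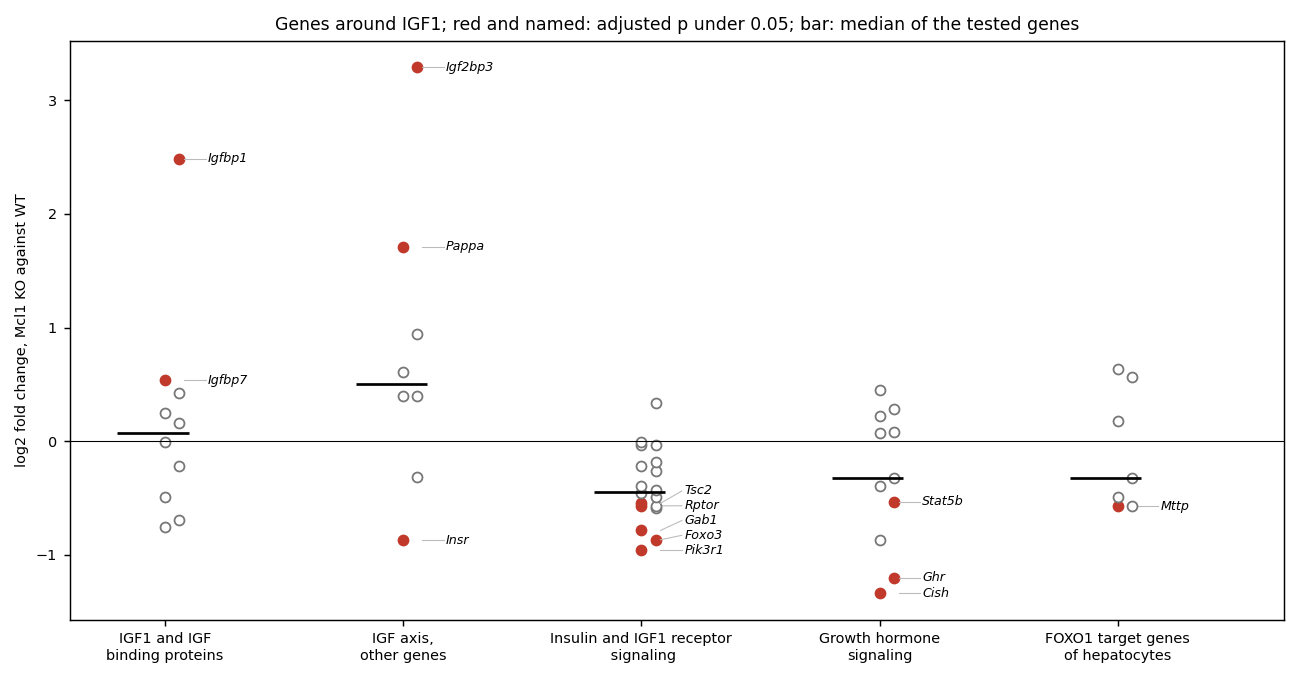
Log2 fold change in Mcl1 KO against WT of the 10 genes and of 4 lists of genes around them; each point is a tested gene, filled red points with names passed an adjusted p of 0.05 in edgeR, and bars are medians. The growth hormone list (median -0.33) and the receptor signaling list (median -0.44) hold falling genes only among those that passed, led by Cish (-1.34) and Ghr (-1.20).

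Over the 12 livers the members also varied together, given here as a description of log2 CPM values that share libraries, genotypes and sexes. Igfals and Igfbp4 ran in parallel (Pearson r = 0.826, n = 12 libraries), as did Igf1 and Igfals (r = 0.791), while Igfbp4 ran against Igfbp7 (r = -0.735) and against Igfbp1 (r = -0.715). The genes most like Igf1 were Itih1 (r = 0.951), Cfap20dc (r = 0.935) and Slc22a23 (r = 0.928). Those most like Igfbp7 were Lum (r = 0.974), Tspan13 (r = 0.972) and Pmp22 (r = 0.965). Those most like Igfbp1 were Rinl (r = 0.904), Ddit3 (r = 0.857) and AI506816 (r = 0.856). Lum encodes the matrix proteoglycan lumican and Ddit3 the stress-induced transcription factor CHOP.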

How the data were processed

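Total RNA from 12 mouse livers, 3 of each of 4 genotypes, was sequenced on an Illumina NovaSeq instrument. The authors deposited whole-number read counts per Ensembl gene for each library, and the submitters' processing notes name STAR, featureCounts and GRCm39. Tool versions, the annotation release and the strand setting are not given in the sources used here. The values were tested as deposited, with no other normalization than the one described here.

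Counts were fitted with edgeR 4.0.16 in R 4.3.3 (TMM, filterByExpr, quasi-likelihood test, 12 libraries in 1 model of 4 genotype means, Benjamini-Hochberg over 15070 genes, adjusted p threshold 0.05). DESeq2 1.42.0 was an alternative. The scripts were tested on simulated data with known changes. CPM used TMM library sizes, and TPM used exon lengths from GENCODE; 1018 of the 40551 identifiers had no entry in that annotation. The common dispersion was 0.0699, and depth was 28826367 to 45266387 counts. Replicates of a genotype differed by more than sampling noise (chi-square per degree of freedom 40.1 to 290), so no library was counted as a copy of another. Nothing in the labels gives litters or batches, so p-values measure the spread between these livers.

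The 10 genes, the gene lists and the markers were chosen with earlier results of these data known. Genes named from a list were up to 4 with the smallest p among those called in Mcl1 KO against WT, or 2 where none was called; for Igf1 and each called member, the 3 genes with the highest Pearson correlation were named. Tsc2, Socs2, Ecm1, Apoc3 and Pck1 were named outside that rule, after their values were seen. Of the listed genes, 2 are not reported here and were left out of their lists. Promoters came from RefSeq. The alternatives were RLE normalization, no filter on low counts, DESeq2, a replicate block, a Y-linked covariate, a small RNA covariate, only the genotypes compared, leaving out each of the 12 libraries, and, chosen after seeing the data, only the 9 libraries without Y-linked expression (under 10 CPM over 4 genes).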

Additional observations from a re-analysis of the deposited data

How the results depend on the processing

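The count of 2 members called in Mcl1 KO against WT was 4 in DESeq2, 1 with a replicate block, 0 with the small RNA covariate, 0 with only the genotypes compared, 0 in the libraries without Y-linked expression, and 0 to 3 when 1 library was left out. The count of 4 for the mean of both Mcl1 effects was 2 with a replicate block, 1 with the small RNA covariate, 0 in the libraries without Y-linked expression and 1 to 4 when 1 library was left out. The cause was not tested; the smaller fits also hold fewer libraries. The count of 0 in each of the other 4 comparisons did not move in any setting. Same-numbered libraries of different genotypes did not deviate together (correlations -0.54 to 0.25, 3 of 18 pairs over 0.1), so the numbers were read as names. The replicate block left Igfbp7 past the threshold in Mcl1 KO against WT (log2 fold change 0.54, adjusted p = 0.0368 by edgeR). It lost the call of Igfbp1 (2.46, adjusted p = 0.0880). With the Y-linked covariate the called genes changed in that comparison. Igfals (adjusted p = 0.0241 by edgeR) and Igfbp1 (0.0307) passed, and Igfbp7 (0.122) did not.

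Among the reported fold changes, signs turned only for values that had not passed. Depth limits low genes, with 23 to 265 counts in a library for Igfbp6 and 7 to 261 for Igf2bp3. In Mcl1 KO against WT, Igf1 was 0.12 with the small RNA covariate, and in the libraries without Y-linked expression Igf1r was -0.047 and Igfbp3 -0.21. Igfbp2 was 0.0054 with RLE, 0.00027 with DESeq2, 0.048 with the replicate block, 0.045 with the small RNA covariate and 0.013 with only the genotypes compared. In Mcl1 Sting1 DKO against Mcl1 KO, the small RNA covariate gave -0.00079 for Igf1, -0.14 for Igfals and 0.34 for Igfbp1, and in the difference of the 2 Mcl1 effects it gave -0.47 for Igfals. In Sting1 KO against WT, Igfals was -0.31 with the Y-linked covariate, and the libraries without Y-linked expression gave -0.18 for Igfals, -0.11 for Igfbp2 and 0.024 for Igfbp4; in Mcl1 Sting1 DKO against Sting1 KO they gave 0.011 for Igf1. Leaving out 1 library gave ranges across 0 in Mcl1 KO against WT for Igf1r (-0.057 to 0.42), Igfbp2 (-0.18 to 0.33), Igfbp3 (-0.0089 to 0.37) and Igfbp6 (-1.65 to 0.94). It did so in Mcl1 Sting1 DKO against Mcl1 KO for Igfbp1 (-0.98 to 0.59), Igfbp4 (-0.064 to 0.23) and Igfbp6 (-1.67 to 0.93), and in Sting1 KO against WT for Igfbp4 (-0.094 to 0.0027) and Igfbp7 (-0.14 to 0.11). In Mcl1 Sting1 DKO against Sting1 KO the ranges were -0.19 to 0.013 for Igf1 and -0.68 to 0.23 for Igfbp6, and in the difference of the 2 Mcl1 effects -0.095 to 0.38 for Igfals and -1.30 to 1.30 for Igfbp6.

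Over all genes, 3050 were called in Mcl1 KO against WT, against 1501 with the Y-linked covariate, 490 with the small RNA covariate, 1178 with only the genotypes compared, 4 without the Y-linked libraries and 1233 to 5232 when 1 library was left out. In Mcl1 Sting1 DKO against Sting1 KO the 121 calls became 456 in DESeq2, 46 with the Y-linked covariate, 17 with only the genotypes compared, 0 without the Y-linked libraries and 1 to 249 when 1 library was left out. Without Mcl1 KO replicate 1, 3108 genes were called between Mcl1 Sting1 DKO and Mcl1 KO, and 1574 in the difference of the 2 Mcl1 effects, where the fit of all libraries called 0. For the mean of both Mcl1 effects the 2522 calls became 1521 with the small RNA covariate, 363 without the Y-linked libraries and 1711 to 4267 when 1 library was left out.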
